A study of Mus musculus with 36 samples.

Results

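The NRF2 antioxidant genes are the transcription factor gene Nfe2l2 (NRF2), the gene of its inhibitor Keap1 and 8 genes known as targets of NRF2, namely Gclc, Gclm, Gsr, G6pdx, Txnrd1, Srxn1, Nqo1 and Hmox1. These 10 genes were chosen by their symbols and known roles, with earlier results of these data known, out of 24421 genes counted in each library. All 10 passed the filter on low counts in every comparison. Liver RNA was sequenced from 36 male C57BL/6J mice, bought at 7 weeks of age and fed CDAHFD over 12 weeks. CDAHFD is a high-fat, L-amino acid diet with little methionine and no added choline, used to bring about steatohepatitis. The mice then received Fc(mML1)B3, an antibody Fc fragment that carries a Met-binding peptide in a loop and was built to mimic hepatocyte growth factor (HGF), or Fc without the peptide as the control, by subcutaneous injection. In the HFD experiment, a high-fat diet (HFD) followed over 2 weeks with weekly doses, of Fc at 4.3 mg/kg in 10 mice and of Fc(mML1)B3 at 5 mg/kg in the other 10. In the standard diet experiment, a standard diet followed for 10 days, with these doses of Fc in 9 mice and of Fc(mML1)B3 in 7 on days 1, 4 and 7. The comparison of both proteins asks what the Met agonist changed in the diseased liver. No sequenced group was kept free of CDAHFD, so all levels are those of livers that had been on this diet.

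Total counts per library ranged from 14949035 to 28466853 with a median of 23558194.5. Levels are in CPM, read counts relative to library size with TMM factors from all 36 libraries. The 6 hepatocyte markers examined, Alb and Ttr among them, summed to between 70700 and 146000 CPM in every library. All 4 haemoglobin genes were listed at 0 in every library, which says nothing of the blood in the samples, since the erythroid gene Alas2 had 40.4 to 171 CPM. The HFD and the standard diet were given in separate experiments that also differ in the number of doses, in duration and in the number series of the library names, and these cannot be told apart. In whole liver, fewer cells of a type and less RNA per cell cannot be told apart.

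NRF2 is a leucine zipper factor that is held in the cytoplasm and marked for degradation by KEAP1. When electrophiles or peroxides modify KEAP1, NRF2 accumulates, pairs with a small MAF protein and binds antioxidant response elements in the promoters of its targets. In the liver its targets make glutathione, regenerate thioredoxin and glutathione with NADPH, and detoxify quinones and haem, and NRF2 itself is regulated largely at the level of the protein, which these data do not measure.

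The core of the antioxidant response element, TGACNNNGC, was searched on both strands in the RefSeq promoters of GRCm38.p6, which cover 250 bases before to 50 bases after each start. It was present in 12.4% of 32851 promoters. Of the 10 genes, 7 had a promoter in the table, with 9 promoters in all, since Txnrd1 had 3, and Gclc, Gsr and Hmox1 had none in it. The core was found in 1 promoter each of Nfe2l2, Gclm, Srxn1, Txnrd1 and G6pdx, and it was not found in those of Keap1 and Nqo1. Bases further from each start were not searched. The matches are printed on the strand of the gene, with the core in capitals and 10 bases on either side, as descriptions of the letters and not as sites of binding.
Nfe2l2, chr2:75704885-75704913, minus strand: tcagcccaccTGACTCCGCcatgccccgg
Gclm, chr3:122245413-122245441, plus strand: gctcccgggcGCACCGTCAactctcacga
Txnrd1, chr10:82859104-82859132, plus strand: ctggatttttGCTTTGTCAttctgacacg
G6pdx, chrX:74428919-74428947, minus strand: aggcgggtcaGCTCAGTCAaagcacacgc
The promoter of Srxn1 is shown whole, since Srxn1 had the smallest p among the 10 genes under the HFD. Its core lies 29 to 37 bases after the start. It also holds TGANTCA, a motif searched after the results were known, at 102 to 96 and at 45 to 39 bases before the start. TGANTCA reads the same on both strands, does not overlap the core match here and was present in 7.81% of promoters. The 3 matches are in capitals.
Srxn1, chr2:152105274-152105573, plus strand: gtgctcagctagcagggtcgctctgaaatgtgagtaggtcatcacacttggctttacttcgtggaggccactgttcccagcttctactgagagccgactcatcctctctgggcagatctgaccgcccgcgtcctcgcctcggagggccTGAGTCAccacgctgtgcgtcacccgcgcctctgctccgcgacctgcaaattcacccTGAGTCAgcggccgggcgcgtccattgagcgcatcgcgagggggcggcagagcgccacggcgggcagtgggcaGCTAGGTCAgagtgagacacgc

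The levels of the 10 genes were first compared per length of exon sequence, as FPKM, which is CPM per kilobase. Gclm, the modifier subunit of glutamate-cysteine ligase, had the highest level in 3 of the 4 groups, from 76.3 ± 7.98 FPKM (SD, n = 10) in Fc(mML1)B3 mice under the HFD to 89.2 ± 8.06 (SD, n = 7) in those of the standard diet. Gclc, its catalytic subunit, came first in Fc mice under the standard diet with 98.1 ± 14.3 FPKM (SD, n = 9), where its range overlapped that of Gclm. Under the HFD it was second, at 47.5 ± 8.53 FPKM (SD, n = 10) in Fc mice, below every value of Gclm. Nfe2l2, Txnrd1, Hmox1, Gsr and Srxn1 filled the middle places in all groups, at 15.6 to 46.0 FPKM, and most neighbours in this order overlapped. Keap1 had the eighth place in each group, at 13.2 to 14.3 FPKM. Nqo1 and G6pdx were lowest in all groups, at 6.36 to 9.43 and 4.38 to 5.75 FPKM. The order was the same in TPM. The spread between mice of 1 group differed widely between the genes. For Hmox1 the coefficient of variation reached 40.5% in Fc mice under the HFD, while for Keap1 it was 5.67% to 7.03% in the 4 groups.

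**Figure D1:**
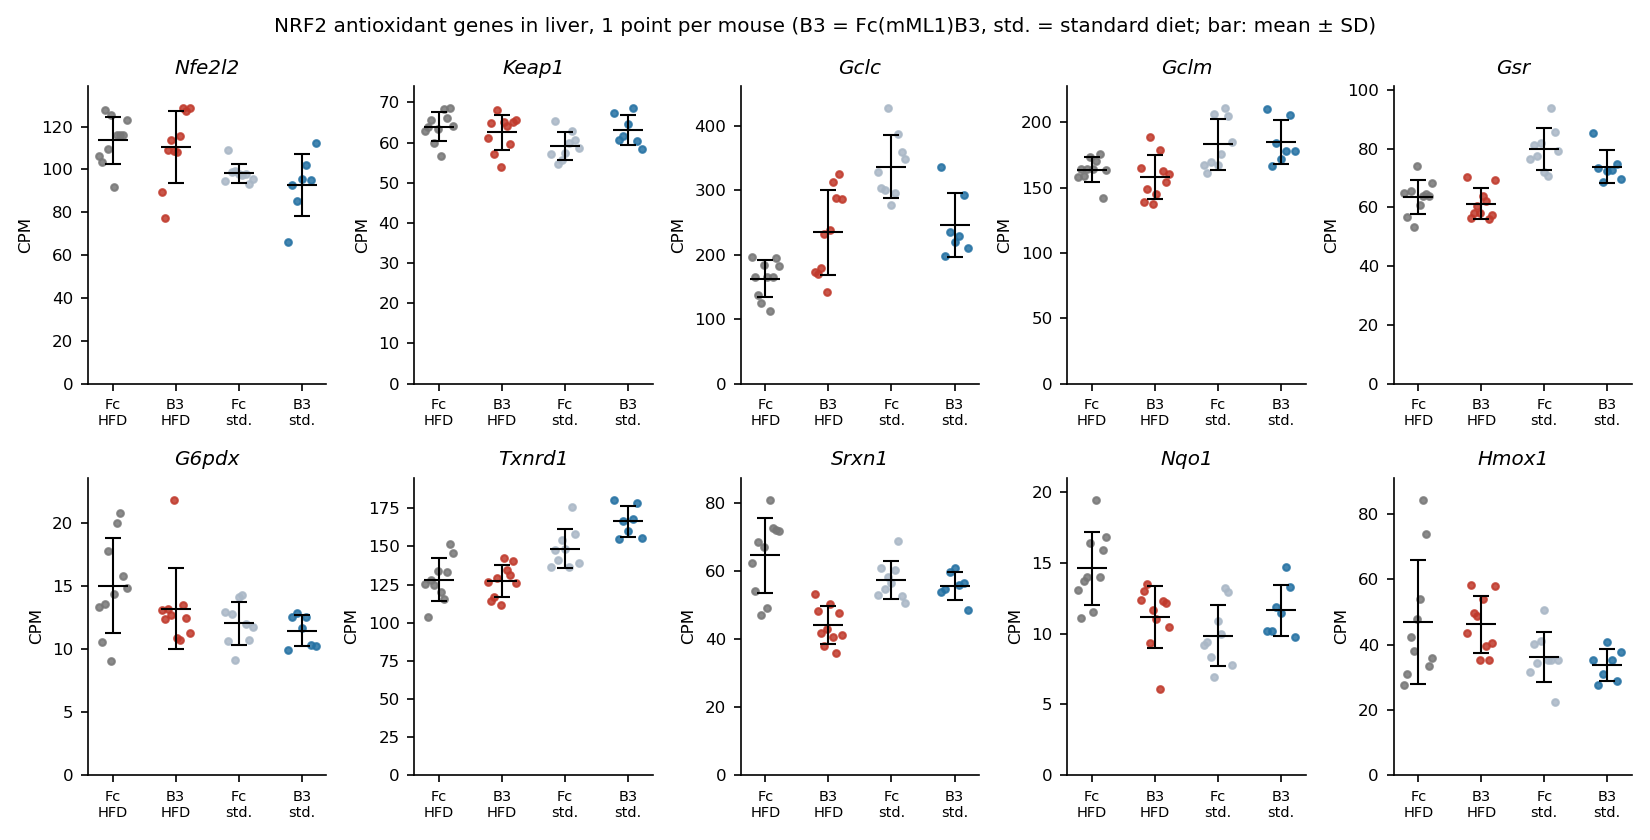
CPM of the 10 genes (vertical axes, from 0) in the 4 groups, with 1 point per mouse, and the mean and SD as bars. The Fc(mML1)B3 mice of the HFD lie above most Fc mice for Gclc and below most of them for Srxn1 and Nqo1, and Gclc turns the other way under the standard diet.

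Under the HFD, 3 of the 10 genes differed between Fc(mML1)B3 and Fc at an adjusted p below 0.05, beside 14.8% of the 13299 genes tested. Gclc was higher, as were 8.14% of all genes, and Srxn1 and Nqo1 were lower, as were 6.68%. The ranges of both groups were apart for 0 of the 10 genes, beside 0.917% of all genes. The genes were thus called in opposite directions, and the median log2 fold change of the 10 genes was -0.03, beside -0.01 for all genes. Of all genes called, 54.9% were higher, and 44.6% were with upper-quartile scaling. In their names, all Fc libraries of the HFD carry numbers of 1 series, while 2 other series hold the Fc(mML1)B3 libraries, and series and protein cannot be told apart in this experiment.

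Srxn1 encodes sulfiredoxin, which reduces over-oxidized peroxiredoxins. The gene is on chromosome 2 (mm10, 152105524 to 152111376). Its CPM in the Fc group was 47.1 at the lowest, 67.6 at the median and 80.9 at the highest. In the Fc(mML1)B3 group it was 35.8, 42.3 and 53.1. The ranges overlapped, but each of the 10 Fc(mML1)B3 mice was under the Fc median. Srxn1 fell from a mean of 64.5 ± 11.1 CPM (SD, n = 10) to one of 43.9 ± 5.57 CPM (SD, n = 10), and its log2 fold change was -0.54 (standard error 0.09, 95% interval -0.73 to -0.34, Benjamini-Hochberg adjusted p = 0.00044 by the quasi-likelihood test of edgeR). A 2-sided permutation test of the mean log2 CPM with 100000 resamples gave p = 0.00016. The difference was of like size with only the 4 Fc(mML1)B3 libraries of one series, whose mean was 45.3 CPM. It was also of like size with only the 6 of the other, whose mean was 43.1 CPM. Over all alternatives of this comparison the value ranged from -0.57 to -0.47, with an adjusted p of 4.35e-06 to 0.0497.

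Gclc encodes the subunit that carries out the rate-limiting step of glutathione synthesis and lies on chromosome 9 from 77754535 to 77794489. In the Fc group its CPM was 112 at the lowest, 166 at the median and 197 at the highest. In the Fc(mML1)B3 group it was 141.4, 235 and 324. The ranges overlapped, and 9 of 10 Fc(mML1)B3 mice lay above the median of the Fc group. Gclc rose from a mean of 163 ± 29.2 CPM (SD, n = 10) to one of 235 ± 66.1 CPM (SD, n = 10), and its log2 fold change was 0.54 (standard error 0.14, 95% interval 0.24 to 0.84, adjusted p = 0.0127 from edgeR's test, permutation p = 0.00656). This call rested on the 6 libraries of one series. The mean was 189 ± 29.5 CPM (SD, n = 4) in Fc(mML1)B3 mice 1 to 4 and 265 ± 67.5 CPM (SD, n = 6) in mice 5 to 10. With the first 4 alone against all Fc mice, the log2 fold change was 0.25 and the adjusted p 0.246, and over all alternatives of this comparison the adjusted p ranged from 0.0025 to 0.246. Gclm, whose product binds that of Gclc, had a log2 fold change of -0.04 (95% interval -0.17 to 0.10, adjusted p = 0.74).

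Nqo1 encodes a quinone reductase that is widely used as a readout of NRF2, and lies on chromosome 8 from 107388225 to 107403205. In the Fc group its CPM was 11.1 at the lowest, 14 at the median and 19.5 at the highest, and in the Fc(mML1)B3 group it was 6.09, 11.9 and 13.5. The ranges overlapped, and the 10 Fc(mML1)B3 mice were all under the Fc median. Nqo1 fell by 0.37 on the log2 scale (standard error 0.12, 95% interval -0.62 to -0.12, adjusted p = 0.0425 from edgeR's test, permutation p = 0.00326). The call was close to the threshold. It was lost in 13 of the 20 fits that left out 1 mouse (-0.38 to -0.30, adjusted p 0.0526 to 0.0842), which were those without Fc mouse 3, 4, 5, 7, 8, 9 or 10 or without Fc(mML1)B3 mouse 4, 6, 7, 8, 9 or 10. With only the 4 libraries of one series the log2 fold change was -0.24 (adjusted p = 0.28), and over all alternatives the adjusted p ranged from 0.0204 to 0.28.

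The other 7 genes were not called under the HFD. For the regulators, Nfe2l2 had a log2 fold change of -0.03 (95% interval -0.20 to 0.15) and Keap1 one of -0.02 (-0.13 to 0.09). Txnrd1, a thioredoxin reductase, had 0.01 (-0.13 to 0.14), and Gsr, the glutathione reductase, -0.04 (-0.17 to 0.09). These intervals are narrow beside those of G6pdx, the first enzyme of the pentose phosphate pathway, at -0.17 (-0.46 to 0.12), and of Hmox1, the haem oxygenase, at 0.00 (-0.37 to 0.36). G6pdx was at -0.27 (adjusted p = 0.109) without Fc(mML1)B3 mouse 5, at -0.11 without Fc mouse 7 or 8 and at -0.03 (adjusted p = 0.902) without both Fc mice. For Hmox1, Fc mice 7 and 8 had the highest levels of all 36 mice, at 84.4 and 74.0 CPM. Both also had the highest sums of 9 macrophage markers, at 2172 and 2290 CPM, and the highest neutrophil sums of the HFD experiment, at 59.7 and 51.3 CPM. Without both mice, the log2 fold change of Hmox1 was 0.27 (adjusted p = 0.194) and that of Nqo1 was -0.32 (adjusted p = 0.101), while Gclc and Srxn1 were still called.

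**Figure D2:**
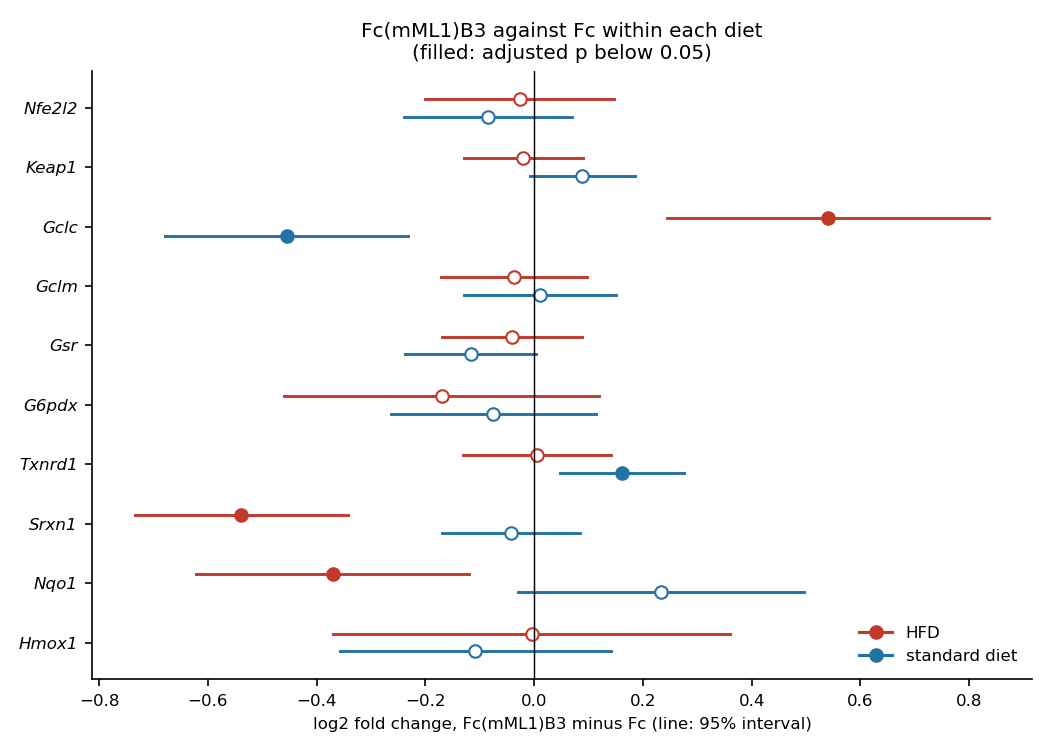
Log2 fold changes of Fc(mML1)B3 against Fc for each gene under the HFD (red) and the standard diet (blue), with 95% intervals as lines and filled points for an adjusted p below 0.05. Gclc lies at 0.54 under the HFD and at -0.45 under the standard diet, on opposite sides of 0.

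Under the standard diet, 2 of the 10 genes were called, beside 16.1% of the 13570 genes tested, and the median log2 fold change of the 10 genes was -0.06. Gclc was lower in the Fc(mML1)B3 group, as were 7.55% of all genes, and Txnrd1 was higher, as were 8.56%. The ranges were apart for 0 of the 10 genes, beside 2.93% of all genes. Neither Srxn1 nor Nqo1 was called in this experiment.

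For Gclc, the CPM in the Fc group was 277 at the lowest, 328 at the median and 427 at the highest. In the Fc(mML1)B3 group it was 198, 229 and 336. The ranges overlapped, and 6 of 7 Fc(mML1)B3 mice were under the Fc median. Gclc fell from a mean of 336 ± 49.1 CPM (SD, n = 9) to one of 246 ± 49.9 CPM (SD, n = 7), and its log2 fold change was -0.45 (standard error 0.11, 95% interval -0.68 to -0.23, adjusted p = 0.00647 from edgeR's test, exact permutation p = 0.0028). Here 1 number series holds all Fc(mML1)B3 libraries and those of Fc mice 6 to 9, and Gclc was also called within that series. With the spread estimated from all 36 libraries, the adjusted p was 0.063, the highest over its alternatives, which began at 0.000496.

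Txnrd1 had a CPM of 136 at the lowest, 148 at the median and 176 at the highest in the Fc group, and of 155, 167 and 181 in the Fc(mML1)B3 group. All 7 Fc(mML1)B3 mice lay above the median of the Fc group, though the ranges overlapped. The log2 fold change was 0.16 (standard error 0.05, 95% interval 0.05 to 0.28, adjusted p = 0.0497 from edgeR's test, exact permutation p = 0.00979). This call was close to the threshold as well. It was lost in 12 of 16 fits that left out 1 mouse (0.14 to 0.17, adjusted p 0.0528 to 0.112), namely without any of Fc mice 1 to 6 and 9 or Fc(mML1)B3 mice 1 and 3 to 6, and within the series that holds both proteins it was 0.12 (adjusted p = 0.328).

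Srxn1, with means of 57.1 ± 5.56 CPM (SD, n = 9) for Fc and 55.6 ± 4.13 CPM (SD, n = 7) for Fc(mML1)B3, had a log2 fold change of -0.04 (95% interval -0.17 to 0.08). Nqo1 had one of 0.23 (-0.03 to 0.50, adjusted p = 0.223), with all 7 Fc(mML1)B3 mice above the median of the Fc group. The remaining genes had log2 fold changes from -0.12 for Gsr (-0.24 to 0.00) to 0.09 for Keap1 (-0.01 to 0.19). Nfe2l2 was at -0.08 (-0.24 to 0.07).

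**Figure D3:**
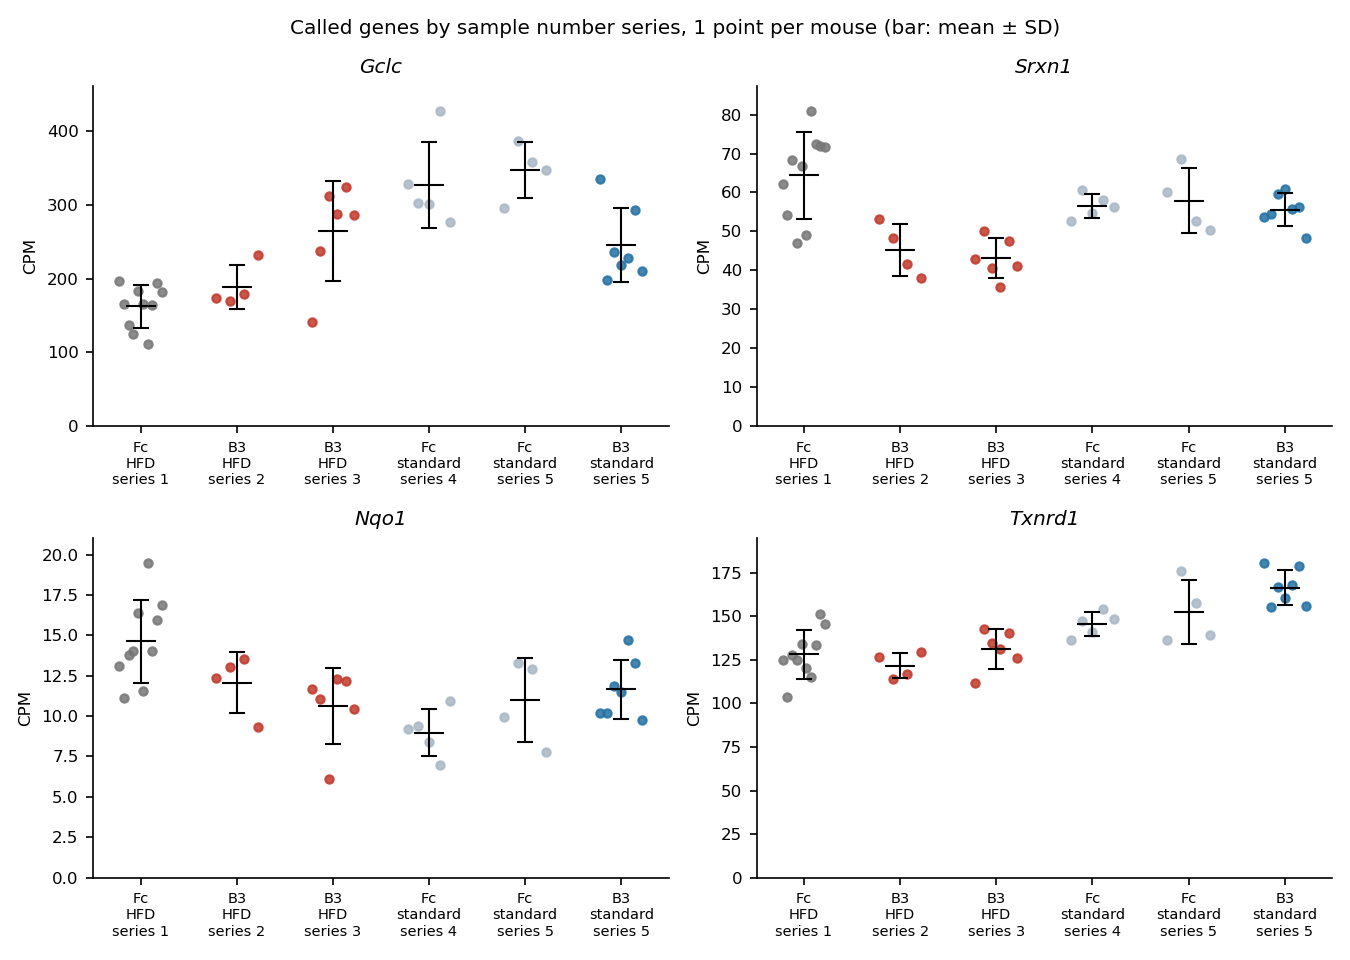
CPM of the 4 genes called within a diet (vertical axes, from 0), with 1 point per mouse and the mean and SD as bars, split by protein, diet and the number series in the library names (series 1 to 5). In the 2 series of Fc(mML1)B3 mice of the HFD, the means are 189 and 265 CPM for Gclc, with overlapping ranges, and 45.3 and 43.1 CPM for Srxn1, and these series were not tested against each other.

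An interaction term, fitted to the 36 libraries together, tested whether Fc(mML1)B3 acted differently in the 2 experiments. Of the 10 genes, 3 were called, beside 9.06% of 14105 genes tested, 2 of them higher (4.66% of all genes) and 1 lower (4.4%). For Gclc, the effect under the standard diet minus that under the HFD was -0.98 (standard error 0.20, adjusted p = 0.00077), and this call was kept in all 36 fits without 1 mouse (adjusted p 0.00015 to 0.00178). For Srxn1 it was 0.51 (standard error 0.12, adjusted p = 0.00447), and this was likewise kept in all 36 fits, while over the other alternatives the value ranged from 0.34 to 0.51 (adjusted p 0.00226 to 0.221). For Nqo1 it was 0.62 (standard error 0.18, adjusted p = 0.0236), and the call was lost without Fc(mML1)B3 mouse 5 or 6 of the standard diet (0.54 and 0.57, adjusted p = 0.0624 and 0.0509), with an adjusted p of 0.0105 to 0.143 over the other alternatives. The regulators had interaction terms of -0.04 (Nfe2l2, adjusted p = 0.895) and 0.13 (Keap1, adjusted p = 0.294). The interaction uses the same libraries as the comparisons within each diet and is not a separate line of data.

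Of 17 circadian clock genes examined, 13 of 16 tested were called under the HFD, 5 higher and 8 lower, beside 14.8% of all genes. In the standard diet experiment 12 of 17 were called, 7 higher and 5 lower, beside 16.1%. Their summed level was 778 to 1040 CPM in Fc mice and 574 to 668 CPM in Fc(mML1)B3 mice of the HFD, without overlap, and 647 to 998 and 854 to 1000 CPM under the standard diet, where the groups overlapped. Arntl, a core clock activator, had 1.2 ± 0.506 CPM (SD, n = 10) in Fc mice and 18.6 ± 8.15 CPM (SD, n = 10) in Fc(mML1)B3 mice of the HFD, and 3.96 ± 1.32 (SD, n = 9) and 1.91 ± 1.00 CPM (SD, n = 7) under the standard diet. Dbp, a clock output gene, went the other way under the HFD. Its means were 100.2 and 9.87 CPM in Fc and Fc(mML1)B3 mice, and 68.68 and 75.85 CPM under the standard diet. The sample labels do not give the time of day at which livers were taken. None of the 17 genes was at 0 in a whole group. Their part in the results for Gclc, Srxn1 and Nqo1 was not tested.

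Between the diets, the same 10 genes were compared in Fc mice and in Fc(mML1)B3 mice separately. Both comparisons share their libraries with those above, and they compare whole experiments. In Fc mice, 8 of the 10 genes were called, 4 higher and 4 lower under the standard diet, beside 47.9% of 14105 genes (23.3% higher and 24.6% lower), and the median log2 fold change was -0.14 beside -0.05 for all genes. In Fc(mML1)B3 mice, 6 of the 10 were called, 4 higher and 2 lower, beside 38.5% (20.7% higher and 17.9% lower), with a median of 0.06 beside -0.02. Upper-quartile scaling moved the median of all genes by -0.08 and -0.09 and the share of called genes that were higher from 48.6% to 34.5% in Fc mice and from 53.6% to 36.8% in Fc(mML1)B3 mice. With it, 2 of the 10 genes were higher and 6 lower in Fc mice, and 3 were higher and 2 lower in Fc(mML1)B3 mice.

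Gclc, Gclm and Gsr, which make or regenerate glutathione, were called higher under the standard diet in Fc mice. Gclc, with 112 to 197 CPM under the HFD and 277 to 427 CPM under the standard diet, was the only one of the 10 genes whose Fc groups did not overlap, which was the case for 9.42% of all genes. It rose by 1.05 on the log2 scale (standard error 0.13, adjusted p = 6.69e-08), while in Fc(mML1)B3 mice, with 141.4 to 324 and 198 to 336 CPM, it was 0.07 (95% interval -0.22 to 0.36, adjusted p = 0.733). Gsr was higher in both, by 0.33 (standard error 0.06, adjusted p = 1.95e-05) and 0.27 (standard error 0.06, adjusted p = 0.000766), and this held in every fit without 1 mouse. Gclm was higher by 0.16 (adjusted p = 0.0308) and 0.23 (adjusted p = 0.00719). With upper-quartile scaling Gclm was at 0.08 and 0.14 and was not called in either. The call in Fc mice was also lost without Fc mouse 9 of the HFD or Fc mouse 4, 7, 8 or 9 of the standard diet (0.13 to 0.16, adjusted p 0.0503 to 0.0898).

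Txnrd1 was higher under the standard diet in Fc mice (0.21, standard error 0.06, adjusted p = 0.0042, and 0.13 with an adjusted p of 0.0512 under upper-quartile scaling). In Fc(mML1)B3 mice it rose by 0.39 (standard error 0.07, adjusted p = 1.14e-05), from 112 to 142.7 CPM under the HFD to 155 to 181 CPM under the standard diet. It was the only one of the 10 genes that did not overlap between these groups, beside 9.9% of all genes. Srxn1 was at -0.17 (adjusted p = 0.0834) in Fc mice and rose by 0.34 (standard error 0.09, adjusted p = 0.00259) in Fc(mML1)B3 mice. In Fc mice it was called lower without Fc mouse 4 or 6 of the HFD or Fc mouse 7 of the standard diet (adjusted p 0.0314 to 0.0383) and with upper-quartile scaling (-0.26, adjusted p = 0.01). The other fits without 1 mouse kept it uncalled, down to -0.13 (adjusted p = 0.184), and over all alternatives the value ranged from -0.26 to -0.04 (adjusted p 0.01 to 0.777).

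Nqo1 fell by 0.57 in Fc mice (standard error 0.13, adjusted p = 0.000318), from 14.6 ± 2.56 CPM (SD, n = 10) under the HFD to 9.87 ± 2.17 CPM (SD, n = 9) under the standard diet. In Fc(mML1)B3 mice it was at 0.06 (95% interval -0.22 to 0.33). Nfe2l2 itself was lower under the standard diet, at -0.21 in Fc mice (standard error 0.08, adjusted p = 0.03) and at -0.25 in Fc(mML1)B3 mice (standard error 0.09, adjusted p = 0.0194). The first call was lost without Fc mouse 3 or 5 of the HFD or Fc mouse 1 or 6 of the standard diet (-0.19 to -0.18, adjusted p 0.0512 to 0.0638), and the second without Fc(mML1)B3 mouse 1 of the standard diet (-0.19, adjusted p = 0.0717). Over the other alternatives Nfe2l2 ranged from -0.29 to -0.15 in Fc mice (adjusted p 0.00219 to 0.166) and from -0.34 to -0.17 in Fc(mML1)B3 mice (adjusted p 0.00162 to 0.141).

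The calls of Keap1, G6pdx and Hmox1 were close to the threshold. Keap1 was at -0.11 in Fc mice (adjusted p = 0.0458), and this call was lost in 15 of the 19 fits without 1 mouse, all but those without Fc mouse 6 of the HFD or Fc mouse 2, 7 or 8 of the standard diet (-0.12 to -0.09, adjusted p 0.0521 to 0.129). Over the other alternatives Keap1 ranged from -0.20 (adjusted p = 0.000463, with upper-quartile scaling) to -0.08, with an adjusted p of up to 0.313. G6pdx was at -0.32 in Fc mice (adjusted p = 0.0371), which was lost without Fc mouse 4, 7, 8 or 9 of the HFD or Fc mouse 2, 4 or 8 of the standard diet (-0.30 to -0.26, adjusted p 0.0514 to 0.0854). Over the other alternatives G6pdx ranged from -0.40 to -0.17 (adjusted p 0.0118 to 0.357). Hmox1 was at -0.37 in Fc mice (adjusted p = 0.0567) and at -0.45 in Fc(mML1)B3 mice (adjusted p = 0.0351). For Hmox1 in Fc mice, fits without 1 mouse gave -0.44 to -0.23 (adjusted p 0.0253 to 0.191). The adjusted p was below 0.05 without Fc mouse 1, 2, 9 or 10 of the HFD or Fc mouse 5 of the standard diet, and the difference was smallest without Fc mouse 7 of the HFD. Without both Fc mice 7 and 8 it was -0.09 (adjusted p = 0.626), and over all alternatives the adjusted p began at 0.0184. In Fc(mML1)B3 mice the call of Hmox1 was lost without mouse 2, 3, 6 or 10 of the HFD or mouse 2, 3 or 6 of the standard diet (-0.44 to -0.41, adjusted p 0.0502 to 0.0768). Without Fc mice 7 and 8 of the HFD, Nfe2l2, Keap1 and G6pdx were not called in Fc mice (-0.19, -0.08 and -0.17, with adjusted p of 0.0683, 0.192 and 0.245).

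**Figure D4:**
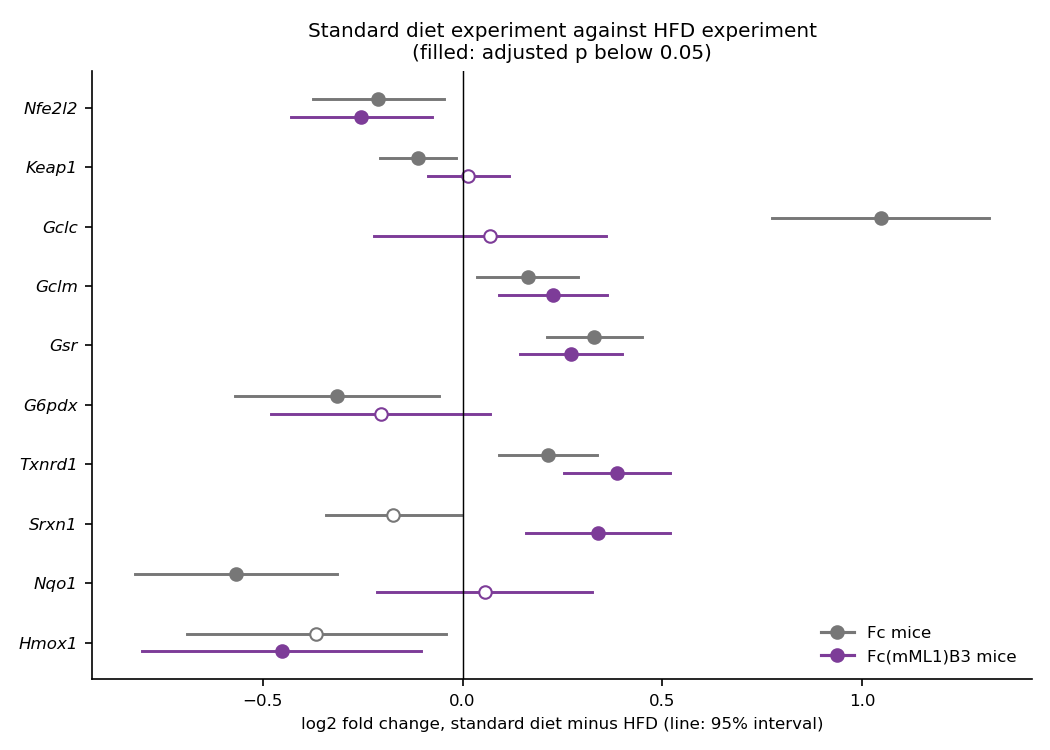
Log2 fold changes between the standard diet and the HFD experiment in Fc mice (grey) and Fc(mML1)B3 mice (purple), with 95% intervals as lines and filled points for an adjusted p below 0.05. Gclc lies at 1.05 in Fc mice and at 0.07 in Fc(mML1)B3 mice, while Gclm, Gsr and Txnrd1 lie above 0 and Nfe2l2 lies below 0 in both.

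Some macrophage and stellate cell markers were called between the experiments. The 9 macrophage markers summed to 1050 to 2290 CPM in Fc mice and 993 to 2020 CPM in Fc(mML1)B3 mice under the HFD, and to 800 to 1380 and 841 to 1150 CPM under the standard diet. Of them, 4 were called lower in Fc mice and 3 in Fc(mML1)B3 mice. The 8 stellate cell markers summed to 380 to 774 and 350 to 895 CPM under the HFD, and to 361 to 563 and 316 to 399 CPM under the standard diet, with 5 and 4 called lower. Of all genes, 24.6% and 17.9% were lower, and the sums overlapped between the diets in both groups. None of these markers was at 0 in a whole group. Their part in the lower levels of Nfe2l2, Hmox1 and G6pdx was not tested.

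Other genes of the pathway were read as lists. Of 13 partners, competitors and turnover factors of NRF2, 5 were lower under the HFD, beside 6.68% of all genes lower, and 0 were higher by edgeR, also at an unadjusted p below 0.05. These were Sqstm1, an autophagy receptor that binds KEAP1, at -0.25 (standard error 0.06, adjusted p = 0.00681), the small MAF genes Mafk at -0.38 (standard error 0.09, adjusted p = 0.00789) and Maff at -0.77 (standard error 0.20, adjusted p = 0.00973), the repressor gene Bach1 at -0.37 and the ubiquitin ligase gene Btrc at -0.24. Under the standard diet, 3 were lower, beside 7.55% of all genes lower, and again 0 were higher at either threshold. Sqstm1 fell from a mean of 461 ± 30.2 CPM (SD, n = 9) to one of 367 ± 22.6 CPM (SD, n = 7), or by 0.34 on the log2 scale (standard error 0.05, adjusted p = 9.06e-05), and Mafk and Bach2 were at -0.44 and -0.72. Maff was at -0.49 and not called (adjusted p = 0.0769). The medians of the list were -0.06 and -0.08.

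Of 18 other NRF2 targets in conjugation, transport and reduction, 1 was higher and 2 were lower under the HFD, which is 16.7% beside 14.8% of all genes. Osgin1, a growth inhibitor gene induced by oxidative stress, rose by 0.90 (standard error 0.21, adjusted p = 0.00583), while the glutathione transferase gene Gstm4 (-0.59, standard error 0.10, adjusted p = 0.000219) and Ugdh, which makes UDP-glucuronate, (-0.46, standard error 0.09, adjusted p = 0.000803) were lower. Under the standard diet, Gstm4 (-0.31, adjusted p = 0.0105) and Osgin1 (-0.54, adjusted p = 0.0476) were lower, and 0 were higher by edgeR, with 2 at an unadjusted p below 0.05. These 2 called genes are 11.1% of the list, beside 16.1% of all genes. Like Gclc, Osgin1 had opposite signs in the 2 experiments, with an interaction of -1.43 (standard error 0.31, adjusted p = 0.00155). Reads that align to several genes were not counted, so that the levels of Gstm4 and other glutathione transferase genes with close paralogs are uncertain.

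Of 15 other targets that act on thiols, NADPH, iron or haem, 14 were tested under the HFD and 0 were called by edgeR, with 1 higher and 2 lower at an unadjusted p below 0.05. Under the standard diet, Prdx6 (0.27, standard error 0.04, adjusted p = 0.000327) and Tkt (0.21, adjusted p = 0.0131) were higher, or 13.3% of 15 genes beside 16.1% of all. Among 18 antioxidant enzymes that are not defined by NRF2, Sod2, the mitochondrial superoxide dismutase, and Glrx, a glutaredoxin, were higher under both diets, at 0.32 and 0.38 under the HFD and at 0.18 and 0.48 under the standard diet. Txnrd3 fell by 0.68 under the HFD (adjusted p = 0.000838), and its effect differed between the experiments (interaction 0.87, adjusted p = 0.000221). Sod1, Prdx2 and Txn2 were also higher under the standard diet, at 0.17, 0.14 and 0.22. In all, 16.7% (HFD) and 27.8% (standard diet) of these enzymes were called, beside 14.8% and 16.1% of all genes. Among 14 genes of glutathione supply and turnover, 1 was called under the HFD and 4 of 13 tested were called under the standard diet (7.14% and 30.8%). Oplah was higher under both diets, at 0.22 (adjusted p = 0.0452) and 0.19 (adjusted p = 0.0295). Under the standard diet Gnmt (0.29, adjusted p = 0.00777) and Chac2 (0.19, adjusted p = 0.0457) were higher. Cbs, the first enzyme of transsulfuration, fell there from a mean of 550 ± 50.5 CPM (SD, n = 9) to one of 373 ± 36 CPM (SD, n = 7), or by 0.56 on the log2 scale (standard error 0.07, adjusted p = 8.79e-06). The alternatives were not read for single genes of these lists.

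Between the diets, the conjugation and transport list had the highest share of called genes among the 5 lists. In Fc mice 10 of 18 were higher and 1 lower, and in Fc(mML1)B3 mice 10 were higher and 2 lower, beside 23.3% and 20.7% of all genes higher and 24.6% and 17.9% lower. Abcc2, the canalicular exporter of glutathione conjugates, rose from 194 ± 36.6 CPM (SD, n = 10) under the HFD to 462 ± 52.9 CPM (SD, n = 9) under the standard diet in Fc mice, or by 1.25 on the log2 scale (standard error 0.09, adjusted p = 1.19e-13), and by 1.27 (standard error 0.09, adjusted p = 6.92e-13) in Fc(mML1)B3 mice. Gstm4 rose by 0.74 and 1.03. The glutathione supply and turnover genes were called in both directions, 4 higher and 4 lower in Fc mice and 2 higher and 5 lower in Fc(mML1)B3 mice, with Cbs among the higher ones (0.80 and 0.47). Of the partners of NRF2, 6 were higher and 1 lower in both. The antioxidant enzymes not defined by NRF2 had 1 higher and 6 lower in Fc mice and 1 higher and 7 lower in Fc(mML1)B3 mice. In the list of thiols, NADPH, iron and haem, 1 was higher and 6 were lower in Fc mice, and 3 were higher and 4 lower in Fc(mML1)B3 mice. In that list Fth1, the ferritin heavy chain gene, fell by 0.28 and 0.31 and Prdx6 fell by 0.38 and 0.27.

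**Figure D5:**
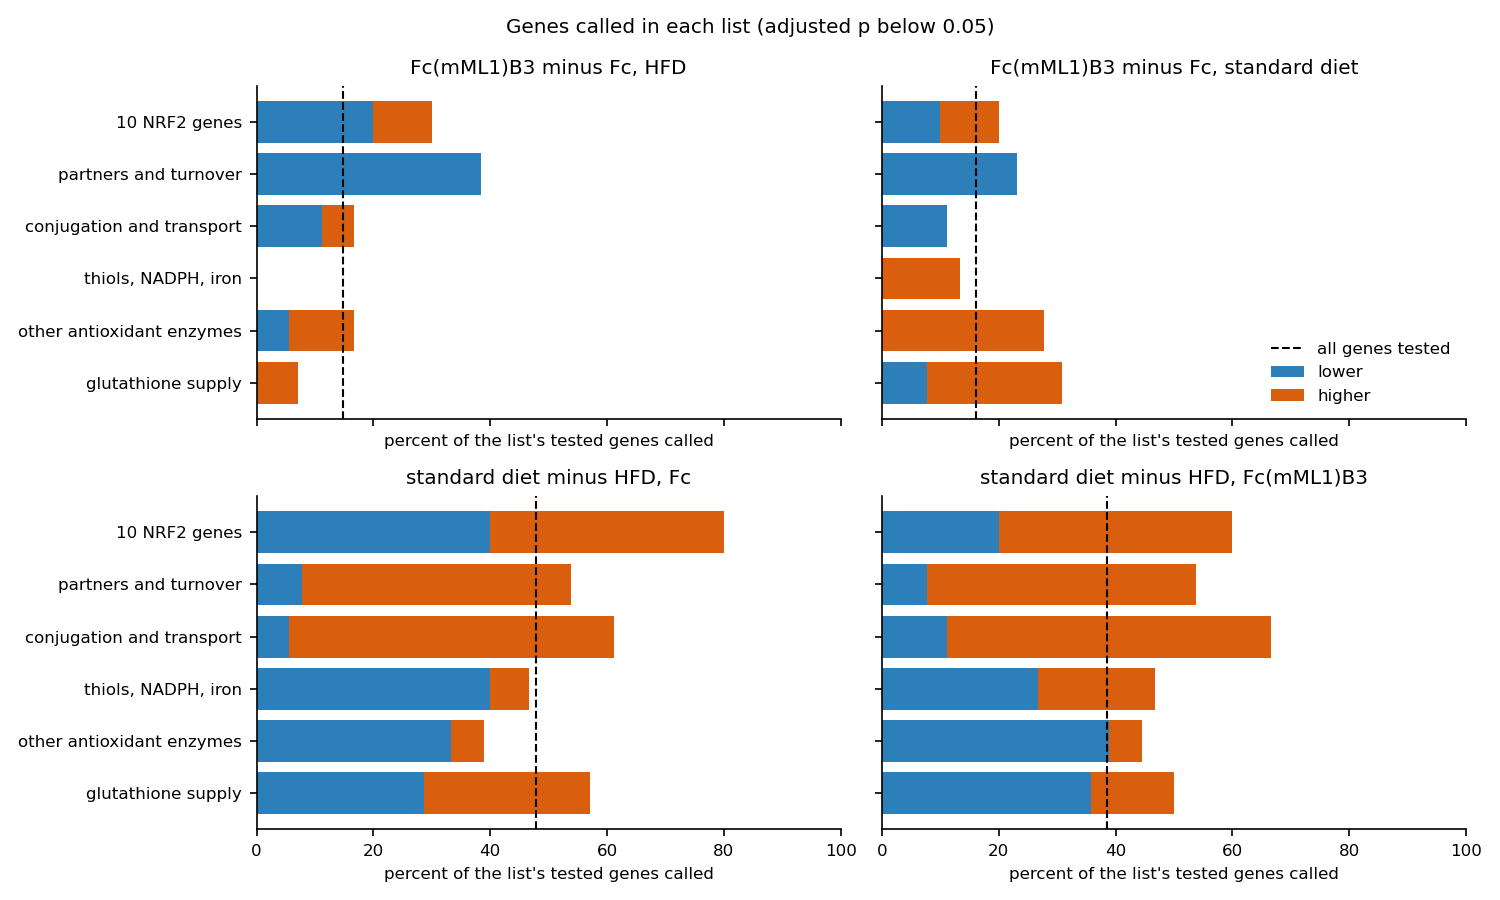
Percent of each list's tested genes called lower (blue) and higher (orange) in 4 comparisons, with the percent of all genes tested that were called as a dashed line. Of the 10 NRF2 genes, 3 were called within the HFD and 2 within the standard diet, in both directions, beside 14.8% and 16.1% of all genes.

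The 10 genes did not vary as 1 group between mice. After centring log2 CPM within each of the 4 groups, the 45 pairs of genes had Pearson correlations over the 36 mice from -0.572 (Gclc with G6pdx) to 0.635 (Gclc with Txnrd1) with a median of 0.141, and 30 of the 45 were above 0. Gclc with Gclm had 0.497, though within the Fc mice of the HFD it was -0.343, against 0.532, 0.869 and 0.972 within the other groups. Nqo1 with Srxn1 had 0.476 and Txnrd1 with Gsr had 0.543, both above 0 in each of the 4 groups. These values are descriptions over mice that share their experiment and library series. Among the genes most like each member by the same measure were Sel1l for Gclc (0.864), Gm3776 and Aurka for Srxn1 (0.708 and 0.629), Ptgr1 and Fkbp1a for Nqo1 (0.637 and 0.609) and Zfp507 and Ywhag for Txnrd1 (0.785 and 0.777). They were Lgalsl and Bag3 for Nfe2l2 (0.771 and 0.753), Eif3b and Ttyh2 for Keap1 (0.682 and 0.618), Dus1l and Strap for Gclm (0.746 and 0.718) and Cct6a and Ywhae for Gsr (0.742 and 0.655). G6pdx was most like Vim and Ctss (0.927 and 0.896), and Hmox1 was most like Cfp and Ctsl (0.861 and 0.847). By mouse, G6pdx was highest in Fc(mML1)B3 mouse 5 of the HFD, at 21.9 CPM, and in Fc mice 8 and 7, at 20.8 and 20.1 CPM, the mice whose macrophage marker sums of 2021, 2290 and 2172 CPM were also the highest 3 of the 36.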

How the data were processed

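Liver RNA of 36 mice was analysed as 1 library per mouse, so p-values measure the spread between mice. The deposited values are counts, which the authors made by fastp trimming, removal of ribosomal RNA (Bowtie2 2.4.5), aligning to mm10 with STAR 2.7.10a and counting with featureCounts of Subread 2.0.3. Pairs had to align with both ends, and each end counted as a read. Strand was not used and reads with several alignments were not counted, so that genes with close paralogs, such as G6pdx, are uncertain. None of the 10 genes shares exon sequence with another gene.

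In edgeR 4.0.16 (R 4.3.3), the libraries of 1 diet at a time were fitted to the counts after filterByExpr and TMM normalization, and proteins were compared by the quasi-likelihood F-test with Benjamini-Hochberg adjustment over all genes tested and a threshold of 0.05 without a fold limit. The interaction and the diet comparisons were fitted over all 36 libraries. Standard errors were obtained from log2 fold changes and F statistics. Permutation tests were 2-sided, exact under the standard diet (11440 groupings) and with 100000 resamples under the HFD. Within groups, 0 pairs of libraries were duplicates (147 pairs, chi-square per degree of freedom at least 6.305). The test was checked on simulated data with 100 genes changed by 1.5-fold and 100 by 2-fold, of which it recovered 76% and 99% under the HFD (13199 genes) 91% and 99% under the standard diet (13477 genes) and 55% and 89% for the interaction (13990 genes).

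The 10 genes and the lists were chosen with earlier results of these data known. All 10 genes were named, with up to 3 called genes per direction from each other list and comparison by the smallest p, and the 2 genes most like each of the 10, of which 1 is not reported here. Bach1 and Btrc under the HFD, and Sod1 and Prdx2 under the standard diet, were added after their values were seen. The alternatives were DESeq2 1.42.0, limma-voom (limma 3.58.1), upper-quartile scaling, filters at 0.5 CPM or none, a replicate block, the thresholds of the study, the spread of all libraries, single number series and each library left out. Promoters came from RefSeq (GRCm38.p6).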

Additional observations from a re-analysis of the deposited data

Results flagged for a closer look

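Of 40 sets of values, 1 for each of the 10 genes in each group of 7 to 10 mice, 4 held a mouse that stood apart by Dixon's test, which chance alone gives in about 1 in 20 sets. These were the highest Nfe2l2 level of the Fc mice of the standard diet (108.9 CPM, mouse 2), the lowest Gclm level of the Fc mice of the HFD (141.9 CPM, mouse 9), the highest Gsr level of the Fc(mML1)B3 mice of the standard diet (85.37 CPM, mouse 1) and the highest G6pdx level of the Fc(mML1)B3 mice of the HFD (21.89 CPM, mouse 5). Without Fc mouse 9, the difference of Gclm between the diets in Fc mice was 0.15 (adjusted p = 0.0512), beside 0.16 (adjusted p = 0.0308) with it.

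By the interaction term of edgeR, Fc(mML1)B3 acted differently in both experiments on 3 of the 10 genes. The effect under the standard diet minus that under the HFD was -0.98 for Gclc, 0.62 for Nqo1 and 0.51 for Srxn1. Of the genes of the other lists, it was -1.43 for Osgin1, 0.59 for Ugdh, 0.30 for Slc48a1 and 0.87 for Txnrd3. Diet, experiment, dosing and library series cannot be told apart in these differences.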

How the results depend on the processing

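Of 380 fold changes of the 10 genes recomputed under alternatives other than single left-out mice, 320 kept their direction and side of the threshold, 33 lost the call, 3 gained it and 24 changed sign. No called fold change changed sign under any alternative run. In the counts of called genes, limma-voom gave 5 in place of 8 between the diets in Fc mice. Upper-quartile scaling, the filter at 0.5 CPM, no filter, the replicate block and the series with both proteins each gave 1 in place of 2 under the standard diet, and the spread of all 36 libraries gave 0 (DESeq2 and limma-voom gave 2). The 4 libraries of one series gave 1 in place of 3 under the HFD. Fold limits of 2 at an adjusted p of 0.1 (HFD) and of 1.5 at 0.05 (standard diet), taken from the study, gave 0 under both diets. For the standard diet the study also states the limits used here for the HFD. In the main fits within each diet, no fold change of the 10 genes between the proteins reached either fold limit. Without Fc mice 7 and 8 of the HFD, chosen after seeing the data, 5 in place of 8 were called between the diets in Fc mice. The cause was not tested. With 1 mouse left out, the counts were 2 to 3 under the HFD, 1 to 2 under the standard diet, 2 to 3 for the interaction, and 5 to 9 and 5 to 6 between the diets in Fc and Fc(mML1)B3 mice, the lowest of these without Fc mouse 4 of the standard diet.

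Mouse numbers did not pair the mice. Correlations of deviations between same-numbered mice were -0.62 to 0.259 in 10 pairs of the HFD and -0.156 to 0.001 in 7 pairs of the standard diet. With the replicate block, 1 gene was called under the HFD, 1 under the standard diet, 1 for the interaction (Srxn1 at 0.34 and Nqo1 at 0.60, with adjusted p of 0.221 and 0.143, were not called), and 4 and 5 between the diets in Fc and Fc(mML1)B3 mice. Over all genes, the block called 1294, 1302 and 703 within the diets and for the interaction, in place of 1972, 2186 and 1278. Other counts over all genes that moved by more than 1.5 times were 3039 (limma-voom), 3133 (spread of all libraries) and 705 (the 4 libraries) under the HFD, 785 (spread of all libraries) and 942 (the series with both proteins) under the standard diet, and 2026 (limma-voom) for the interaction. The thresholds of the study called 178 and 320.

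The values that changed sign were not called. Under the HFD they were Nfe2l2 (0.04 with limma-voom, 0.08 with the 6 libraries), Keap1 (0.01 with limma-voom, 0.01 with the 4 libraries), Hmox1 (0.15 with limma-voom, 0.01 with the filter at 0.5 CPM, 0.07 with the replicate block, 0.13 with the 4 libraries, 0.27 without Fc mice 7 and 8), Gclm (0.00 with the 4 libraries) and Txnrd1 (-0.03 with upper-quartile scaling, -0.01 with the spread of all libraries, -0.04 with the 4 libraries, -0.01 without Fc mice 7 and 8). Under the standard diet they were Hmox1 (0.07) and Gclm (-0.07) in the series with both proteins, and Gclm (0.00) with upper-quartile scaling. The interaction of G6pdx was -0.05 with the replicate block and -0.04 without Fc mice 7 and 8. Between the diets in Fc(mML1)B3 mice they were Keap1 (-0.01 with DESeq2, -0.07 with upper-quartile scaling), Gclc (-0.01 with limma-voom, -0.02 with upper-quartile scaling) and Nqo1 (-0.03 with upper-quartile scaling). With 1 mouse left out, sign changes without a call gave ranges of -0.05 to 0.02 for Nfe2l2, -0.03 to 0.00 for Keap1, -0.07 to 0.13 for Hmox1 and -0.02 to 0.03 for Txnrd1 under the HFD, -0.02 to 0.04 for Gclm under the standard diet, -0.10 to 0.01 for the interaction of Nfe2l2, and -0.01 to 0.03 for Keap1, -0.02 to 0.09 for Nqo1 and -0.02 to 0.13 for Gclc between the diets in Fc(mML1)B3 mice. Counting error relative to the level is largest for genes at low counts, such as Nqo1 and G6pdx, and its share was not measured.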

Other observations

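Markers of other cells that liver can hold were counted beside the 10 genes. Of all genes, 8.14% were higher and 6.68% lower under the HFD, 8.56% and 7.55% in the standard diet experiment, and 24.6% were lower under the standard diet in Fc mice. Of 5 neutrophil markers, 3 were tested under the HFD and 2 were lower in Fc(mML1)B3 mice, with a median log2 fold change of -1.27. The summed level of all 5 had medians of 11.8 CPM in Fc mice and 8.41 CPM in Fc(mML1)B3 mice. It ranged from 5.42 to 59.7 and from 4.99 to 12.0 CPM, and without Fc mice 7 and 8 the highest Fc mouse had 13.29 CPM. Of 5 B and T cell markers, 1 was lower under the HFD, and between the diets all 5 were lower under the standard diet in Fc mice, with a median of -1.16. Cholangiocyte markers, with medians of -0.24 (HFD) and -0.37 (standard diet), had 0 and 1 of 6 called. Endothelial markers had 0 of 5 called by edgeR within either diet. Of 6 hepatocyte markers, 1 was higher (HFD) and 2 (standard diet), and of 9 macrophage markers 0 and 1 were lower. Of 8 stellate cell markers, 0 (HFD) and 2 (standard diet) were lower by edgeR, with medians of -0.3 and -0.27. The only erythroid marker with reads, Alas2, was not called within either diet and rose by 0.75 and 0.61 on the log2 scale under the standard diet in Fc and Fc(mML1)B3 mice.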
